A study of Rattus norvegicus with 6 samples.

Results

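Each of miR-208a, miR-208b and miR-499 is a muscle miRNA encoded inside a myosin heavy chain gene, and their levels were compared between the hearts of rats with chronic DSS colitis and control hearts. The members were chosen by name, as every arm of these miRNAs with a probe on the array, which gave 6 probes of 761 for rat miRNAs: rno-miR-208a-5p, rno-miR-208a-3p, rno-miR-208b-5p, rno-miR-208b-3p, rno-miR-499-5p and rno-miR-499-3p. Hearts came from 3 control rats (animals 9, 10 and 11) and from 3 rats (animals 13, 14 and 16) that drank 3% dextran sodium sulfate (DSS), an irritant of the colon lining, in 4 cycles of 5 days, with 9 days of plain water between cycles, over 8 weeks. All animals were adult male Sprague Dawley rats, littermates per the study's methods, and the RNA was total RNA of the heart, 1 array per animal.

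Myosin heavy chains are the motor proteins of the muscle filament. Myh6 encodes the alpha chain, the fast form that dominates the adult rodent ventricle, Myh7 encodes the slower beta chain of the fetal and the stressed heart, and Myh7b encodes a related chain. Each gene carries a miRNA hairpin that is cut out of its transcript, so that miR-208a comes with Myh6, miR-208b with Myh7 and miR-499 with Myh7b. In rodent hearts these miRNAs are known as markers of the cardiac muscle cell and as regulators of the balance between the alpha and the beta chain. A hairpin gives a 5p and a 3p product, of which miR-208a-3p, miR-208b-3p and miR-499-5p are the ones usually studied as active. The question was whether the products changed with colitis in a way that could be read as a shift between their host genes. The arrays measured no host gene transcript.

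The sequences show how alike these molecules are. Whether the probes of similar arms, such as miR-208a-3p and miR-208b-3p, share signal was not tested. The target sequences in the scanner files were identical to the mature sequences in RefSeq for 6 of 6 arms, and are written 5′ to 3′ with the seed, bases 2 to 8, in capitals.
rno-miR-208a-3p: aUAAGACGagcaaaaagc
rno-miR-208b-3p: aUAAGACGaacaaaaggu
rno-miR-499-5p: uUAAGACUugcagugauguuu
rno-miR-208a-5p: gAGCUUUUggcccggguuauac
rno-miR-208b-5p: aAGCUUUUugcucgcguuau
rno-miR-499-3p: aACAUCACagcaagucugugcu
The 6 arms held 4 different seeds. miR-208a-3p and miR-208b-3p had the same seed and differed at 3 positions, counted from the 5′ end of miR-208a-3p, which were G10A, A16G and C18U. miR-499-5p shared bases 2 to 7 with both of them and left them at base 8. None of the other targets on the array had the same bases 2 to 7 as any of the 6 arms. miR-208a-5p and miR-208b-5p shared a seed with each other and were 6 edits apart. The nearest target outside the miR-208 and miR-499 arms was 9 edits away for miR-208a-5p and 8 edits away for miR-499-5p.

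The hairpins place these arms in the genome. Each hairpin is shown whole, with its 5p and 3p arms in capitals, from RefSeq on build GRCr8.
Mir208a: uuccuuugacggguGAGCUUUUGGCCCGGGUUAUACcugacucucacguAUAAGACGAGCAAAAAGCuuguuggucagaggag
Mir208b: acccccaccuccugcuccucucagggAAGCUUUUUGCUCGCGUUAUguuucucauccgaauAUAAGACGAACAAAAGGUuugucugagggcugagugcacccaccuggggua
Mir499a: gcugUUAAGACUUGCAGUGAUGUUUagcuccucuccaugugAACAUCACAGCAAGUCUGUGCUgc
Mir208a spans chr15:32395552-32395634 on the minus strand, inside the bounds of Myh6 (chr15:32388102-32413663, minus strand). Mir208b spans chr15:32421615-32421726 on the minus strand, inside Myh7 (chr15:32416525-32439851, minus strand). Both myosin genes therefore lie side by side on chromosome 15, 2861 bases apart, and their hairpins are 25980 bases apart. Mir499a spans chr3:164570612-164570676 on the plus strand, inside Myh7b (chr3:164537211-164582441, plus strand). Exons and introns were not analysed here, so only the position within the gene bounds was read. The annotated 3p arms of both miR-208 hairpins were 18 bases long, a length that only 25 of the 761 array targets reached or fell below, whereas miR-499-5p had 21 bases and miR-208a-5p had 22. Of those 25 short targets, 32.0% were detected on at least 3 arrays, against 37.2% of the longer targets.

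Brightness was read on 4 spots per probe on each array. The detection limit of an array lay 3 SD, measured on its empty spots, above its background. The background was read from the dimmest miRNA spots, and the median empty spot lay above it. On control 10, DSS 14 and DSS 16 it did so by 45.0, 50.3 and 27.5. A spot at the limit was therefore less than 3 SD above a typical empty spot. An arm counted as detected if 2 or more spots exceeded this limit with little variation among their pixels. miR-499-5p and miR-208a-5p were detected on 6 of 6 arrays. miR-208a-3p was detected on 1 array (control 9), miR-499-3p on 2 (control 9 and DSS 13), and miR-208b-3p and miR-208b-5p on 0 arrays. Of the 3 arms usually studied as active, therefore, only miR-499-5p was measured in every heart. The background itself was low on control 9, control 11 and DSS 13 (35.4 to 37.4) and higher on control 10, DSS 14 and DSS 16 (67.5 to 95.4). The files give neither slide nor scan, so whether these arrays shared a slide could not be tested.

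**Figure D1:**
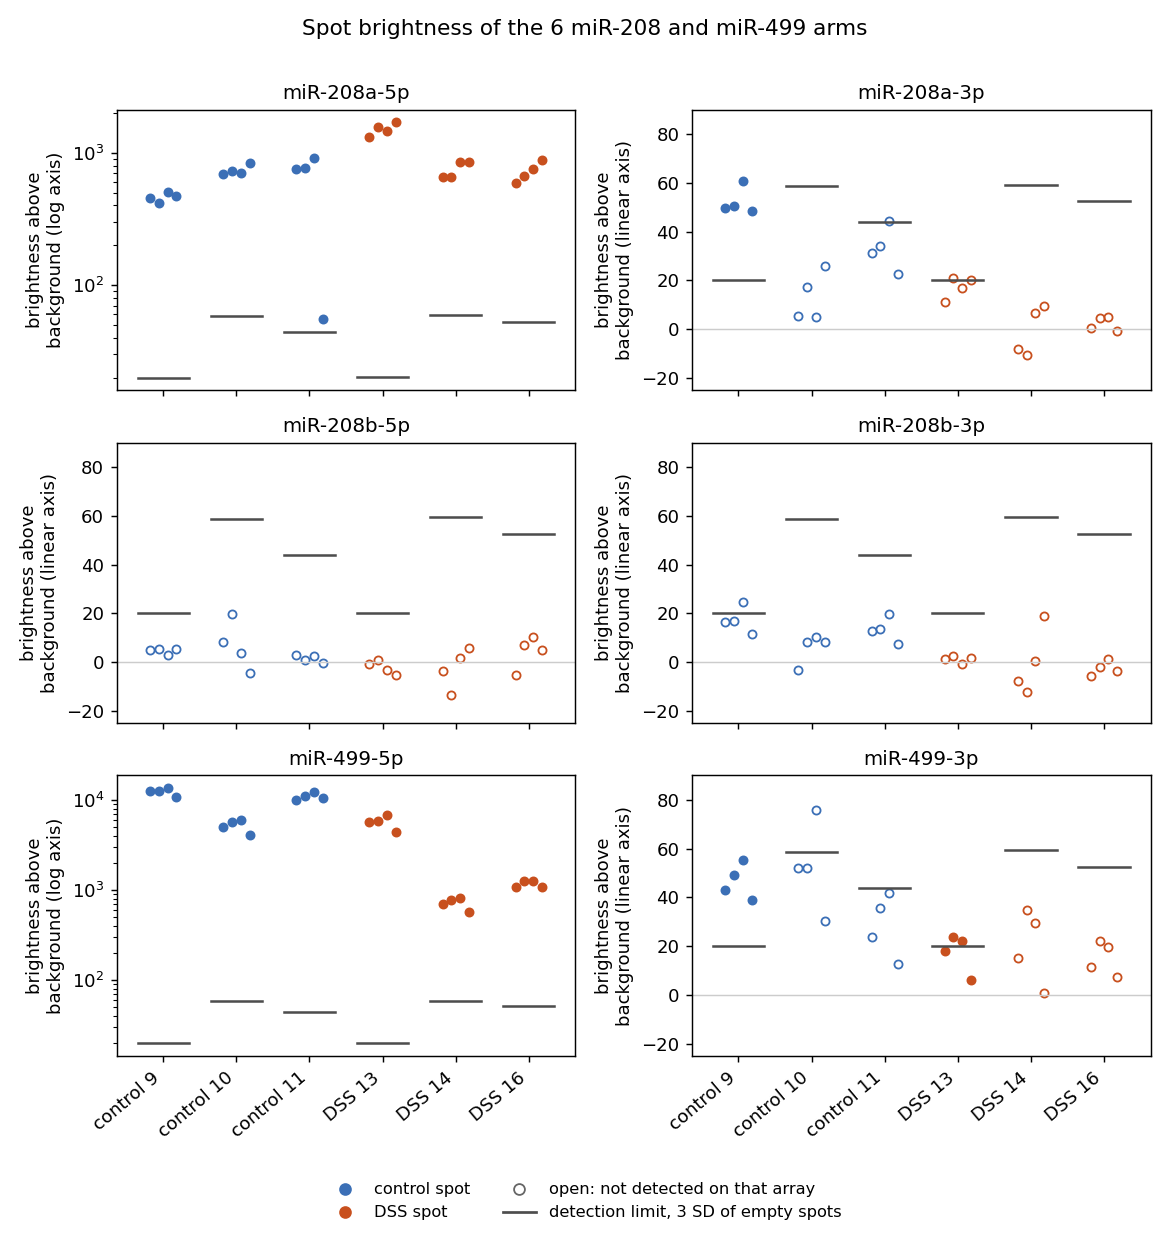
Brightness above the background of each of the 4 spots of each arm (points) on the 3 control and 3 DSS arrays, with the detection limit of each array as a horizontal line; the panels of miR-208a-5p and miR-499-5p have log axes and the others linear axes. The spots of miR-499-5p lie far above the limit on 6 of 6 arrays, whereas those of miR-208b-5p lie around 0 and those of miR-208b-3p mostly between 0 and the limit on the control arrays, with 1 spot above it on control 9.

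miR-499-5p, the Myh7b product, was lower in the hearts of DSS rats. Its mean brightness above background was 12391 on control 9, 5233 on control 10 and 11048 on control 11. On the DSS arrays it was 5707 on DSS 13, 719 on DSS 14 and 1174 on DSS 16. Before normalization DSS 13 thus lay slightly above control 10, and the remaining control arrays lay above each of the DSS arrays. After cyclic LOWESS normalization the log2 signals were 13.63, 12.13 and 13.02 in control hearts and 11.83, 10.15 and 10.54 in DSS hearts, and the groups no longer overlapped. The 4 spots of an array differed far less than the animals did, with a coefficient of variation between 8.60% and 17.5%.

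The group means of miR-499-5p on the normalized log2 scale were 12.93 ± 0.76 (SD, n = 3) in control hearts and 10.84 ± 0.88 (SD, n = 3) in DSS hearts. The difference was -2.09 (SE 0.54, 95% confidence interval -3.37 to -0.81), which is a signal 4.25-fold lower in DSS hearts, with limma's adjusted p = 0.0213. The interval, from 1.75-fold to 10.3-fold, is wide, with 3 hearts per group measured. In the same test 139 of 282 miRNAs were called different (49.3%), of which 80 (28.4%) were lower and 59 (20.9%) higher in DSS hearts, so that nearly as many miRNAs were called as were not. Groups that did not overlap, with DSS lower, were seen for 98 of 282 miRNAs (34.8%). By size, the fall of miR-499-5p was the 8th largest of the 282, and by p-value it ranked 84th.

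The call for miR-499-5p depended on single hearts, although its direction did not. Leaving out DSS 16 gave -1.81 with an adjusted p of 0.0899 in limma, and at the same time no miRNA of 268 was called, although 124 had an unadjusted p under 0.05. Leaving out DSS 14 gave -1.42 (limma's adjusted p = 0.0776) and leaving out control 11 gave -2.15 (limma's adjusted p = 0.0547). Testing all 761 probes rather than the 282 detected ones gave an adjusted p of 0.0685 in limma. With the methods' t-test, run on the values normalized here, the unadjusted p was 0.0354 and the adjusted p was 0.0756. In that test 0 of 282 miRNAs passed after adjustment, against 155 before it. The study's own list of high-signal miRNAs significantly decreased in DSS hearts does not hold miR-499-5p.

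The background of the arrays moved with the miR-499-5p signal. The dimmest control (control 10) was an array with a high background, and the brightest DSS heart (DSS 13) was an array with a low background. On the 3 arrays with a low background the difference between DSS and control was -1.50 on the log2 scale (2 controls, 1 DSS heart), and on the 3 arrays with a high background it was -1.78 (1 control, 2 DSS hearts). With the background class as a block in limma, an alternative chosen after seeing the data, the difference was -1.64 (SE 0.25, adjusted p = 0.0137). Each class held a group of 1 heart, so no test was made within a class, and the classes were set after the values were seen. The part of the background in the difference was not tested.

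In the deposited table of processed signals, which the authors had background-subtracted and normalized themselves, miR-499-5p read 12235, 5466 and 9363 in controls 9, 10 and 11 and 4200, 882 and 1479 in DSS hearts 13, 14 and 16. The ratio of the arithmetic means was 4.12, and the groups did not overlap there either. They did overlap with no normalization and with arrays scaled to the 5S rRNA probes or to the spike-in probes, where the differences were -2.34, -1.92 and -1.39.

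miR-499-3p, the opposite arm of the same hairpin, stayed near the limit of the array. Its mean brightness above background was 46.5, 52.5 and 28.5 on controls 9, 10 and 11, against detection limits of 20.01, 58.6 and 43.9. On DSS 13, 14 and 16 it was 17.6, 20.1 and 15.1, against limits of 20.3, 59.3 and 52.4. Above this background each control was brighter than each DSS heart. Above the median empty spot the groups overlapped, with 10.5 on DSS 13 and 7.42 on control 10. The passing arrays were control 9 and DSS 13 alone, and on DSS 13 it was by 2 spots just over the limit. The normalized difference was -0.60 and was not tested. Its direction turned with arrays scaled to the spike-in probes (0.63) or to 5S rRNA (0.10).

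miR-208a-5p, an arm of the Myh6 hairpin, was bright on every array and was not called different. Its mean brightness above background was 462, 741 and 625 on controls 9, 10 and 11. On DSS 13, 14 and 16 it was 1509, 753 and 721. DSS 13 stood above the other arrays, and DSS 14 and DSS 16 were close to control 10. After normalization the log2 signals were 9.24, 9.78 and 8.71 in control hearts and 9.92, 10.11 and 9.75 in DSS hearts, and control 10 lay just above DSS 16, so the groups overlapped.

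The mean log2 signal of miR-208a-5p was 9.24 ± 0.54 (SD, n = 3) in control hearts and 9.92 ± 0.18 (SD, n = 3) in DSS hearts. The difference was 0.68 (SE 0.29, 95% confidence interval -0.02 to 1.38, limma's adjusted p = 0.0910). The interval includes 0 and also a rise of more than 1 on the log2 scale. The low value of control 11 came from 1 of its 4 spots, which read 91.9 where the other 3 read between 794 and 956. Without that spot, which was left out only after the values were seen, the difference was 0.47 (limma's adjusted p = 0.102). In the authors' processed table the arm read 676, 893 and 666 in controls and 865, 742 and 845 in DSS hearts, and the difference of log2 values was 0.13.

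Whether miR-208a-5p was called depended on how the arrays were scaled. The 11 spike-in calibration probes, unnormalized, had a mean log2 signal of 10.69, 10.86 and 10.94 on controls 9, 10 and 11. It was 10.49, 9.44 and 9.71 on DSS 13, 14 and 16. DSS 14 and DSS 16 also had the lowest miR-499-5p, and a link between these was not tested. Between DSS and control arrays the spike-in probes differed by -0.95 on the log2 scale, and the 6 probes for 5S rRNA by -0.42. Scaling to them raised the median change of all 282 miRNAs from -0.06 to 1.31 and 0.78, and 0.36 was the median with no normalization. The miR-208a-5p difference then passed the test, at 1.68 (limma's adjusted p = 0.000782) with the spike-in probes and 1.15 (limma's adjusted p = 0.0177) with 5S rRNA. Relative to the median of all miRNAs, miR-499-5p changed by -2.02 after LOWESS normalization and by -2.70 with no normalization. Scaling to the spike-in probes or to 5S rRNA shifts a whole array, so it leaves this value the same by construction. Calls changed their balance too, from 59 higher and 80 lower to 168 and 10 with the spike-in probes, 129 and 14 with 5S rRNA, and 81 and 38 with no normalization.

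miR-208a-3p, the active arm of the Myh6 hairpin, was at the limit. Its mean brightness above background was 52.3, 13.6 and 33.1 on controls 9, 10 and 11 and 17.3, -0.57 and 2.40 on DSS 13, 14 and 16. It passed on control 9, where the limit was 20.01, and on none of the DSS arrays. No fold change is given, because 2 of 3 control arrays and 3 of 3 DSS arrays were under the limit. The normalized log2 signals were 7.14, 6.25 and 6.70 in control hearts and 6.39, 5.87 and 6.10 in DSS hearts, and control 10 was below DSS 13.

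miR-208b-3p and miR-208b-5p, the arms of the Myh7 hairpin, were not detected in either group. For miR-208b-3p the mean brightness above background was 17.4, 5.93 and 13.3 on controls 9, 10 and 11 and 1.29, -0.20 and -2.48 on DSS 13, 14 and 16. The highest of these, on control 9, was under its limit of 20.01. For miR-208b-5p the range was 1.54 to 6.73 in controls and -2.35 to 4.24 in DSS hearts. No level of a Myh7 product, and no rise of it in DSS hearts, was detectable on these arrays, and no fold change is given between values that are both under the limit. The ratios of miR-208b-3p to miR-208a-3p and of miR-499-5p to miR-208a-3p, which would have set the beta and the Myh7b product against the alpha product, were therefore not formed.

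What remained was to compare products of different hairpins, miR-499-5p against miR-208a-5p, on the same array. This pair was chosen after seeing which arms were detected. The 3p arm of the miR-208a hairpin was detected on control 9 alone, although its 5p arm was detected on 6 of 6 arrays. Whether either arm of the pair follows its host gene was not tested. The levels of different probes cannot be set against each other, because probes differ in how well they bind, but the log2 difference can be compared between arrays. It was 4.39, 2.35 and 4.32 in controls 9, 10 and 11 and 1.91, 0.05 and 0.79 in DSS hearts 13, 14 and 16, so each control lay above each DSS heart. The group means were 3.69 ± 1.16 (SD, n = 3) and 0.92 ± 0.94 (SD, n = 3), a change of -2.77. A two-sided exact permutation test over 20 arrangements gave p = 0.1, which is the smallest it can give with 3 hearts per group. Any scaling that shifts a whole array leaves this difference as it was without normalization, where the change was -3.07. A ratio describes the arms relative to each other and does not tell which of them moved. The value of control 11 includes its dim miR-208a-5p spot. Across the 6 arrays the log2 signals of both arms had a Pearson's r of -0.77, and of -0.43 once the group means were removed. Both are descriptions, since the arms share each array's normalization.

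**Figure D2:**
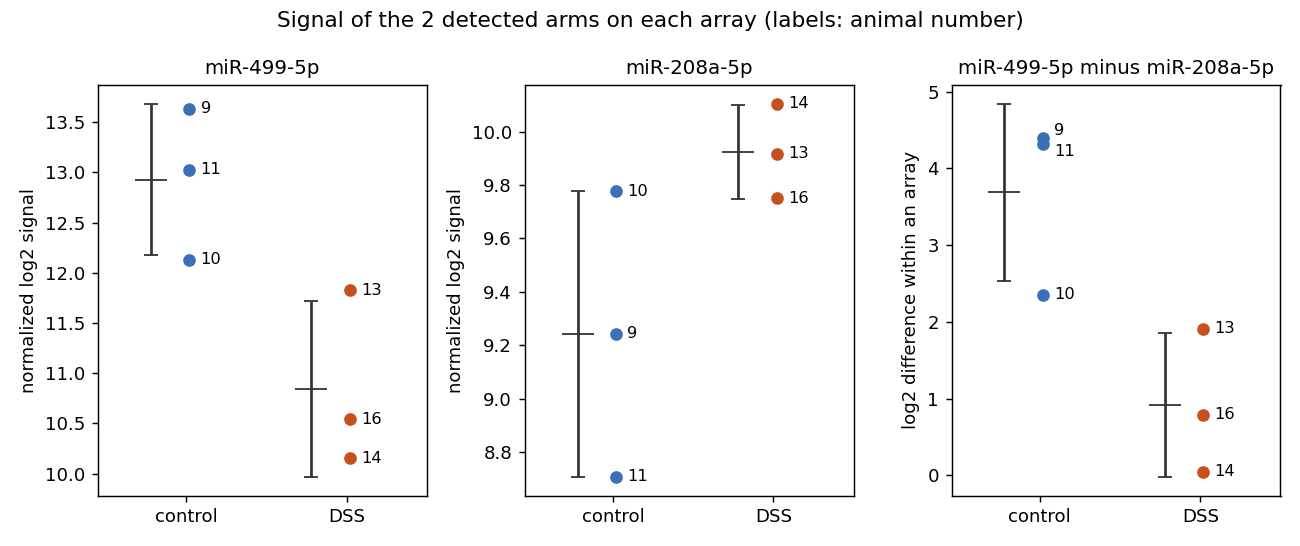
Normalized log2 signal of miR-499-5p (left) and miR-208a-5p (middle) and their log2 difference within an array (right) in control and DSS hearts; points are arrays marked with the animal number, and bars are the mean ± SD of 3. The groups are apart for miR-499-5p and for the difference, and overlap between control 10 and DSS 16 for miR-208a-5p.

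Other miRNAs of striated muscle changed in both directions. The list held every arm of miR-1, miR-1b, miR-133a, miR-133b, miR-133c, miR-206 and miR-486, of which 11 were on the array, 8 were tested and 3 were detected on no array. In limma 4 were higher in DSS hearts, 1 was lower and 3 were not called, so 5 of 8 were called where 49.3% of all tested miRNAs were (20.9% higher, 28.4% lower). Of the 4 that were higher, miR-1-3p and miR-1b have nearly the same sequence. miR-206-3p shares their seed, is 3 edits from miR-1-3p and may also share signal with it. The 3 were counted separately. The median change of the 8 was 0.44, against -0.06 over all miRNAs tested. miR-1-3p, an abundant miRNA of cardiac and skeletal muscle, had log2 signals of 11.85, 11.50 and 12.21 in control and 13.59, 15.91 and 15.41 in DSS hearts, a rise of 3.11 (limma's adjusted p = 0.0151). miR-1b, which is 1 edit away from it and may share its signal, rose by 3.05, miR-486 by 2.36 and miR-206-3p, known from skeletal muscle, by 1.23. Without DSS 16 none of them was called in limma (adjusted p of 0.0593 for each at 3 significant digits), and without control 9 the list held 3 calls.

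The miR-133 arms, of which miR-133a and miR-133b come from transcripts shared with miR-1 and miR-206, went the other way or were not called. miR-133a-5p fell by 1.08 on the log2 scale (limma's adjusted p = 0.0323), a call lost in 10 of 21 alternatives, among them the leaving out of control 9, control 10, DSS 14 or DSS 16. miR-133a-3p (-0.67, limma's adjusted p = 0.0527), miR-133b-3p (-0.34) and miR-133c (-0.46) were not called, and the signs of miR-133b-3p and miR-133c turned when arrays were scaled to the spike-in probes. miR-499-5p thus had a larger fall than each tested miRNA of this list. On the arrays miR-1-3p, a marker of the same cardiac muscle cells, was among the 4 largest rises of the 282. The study's RT-qPCR found no significant change of miR-1-3p or miR-206-3p. It found a significant rise of miR-1b, smaller than that on the arrays. No test of the difference between these miRNAs was made.

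**Figure D3:**
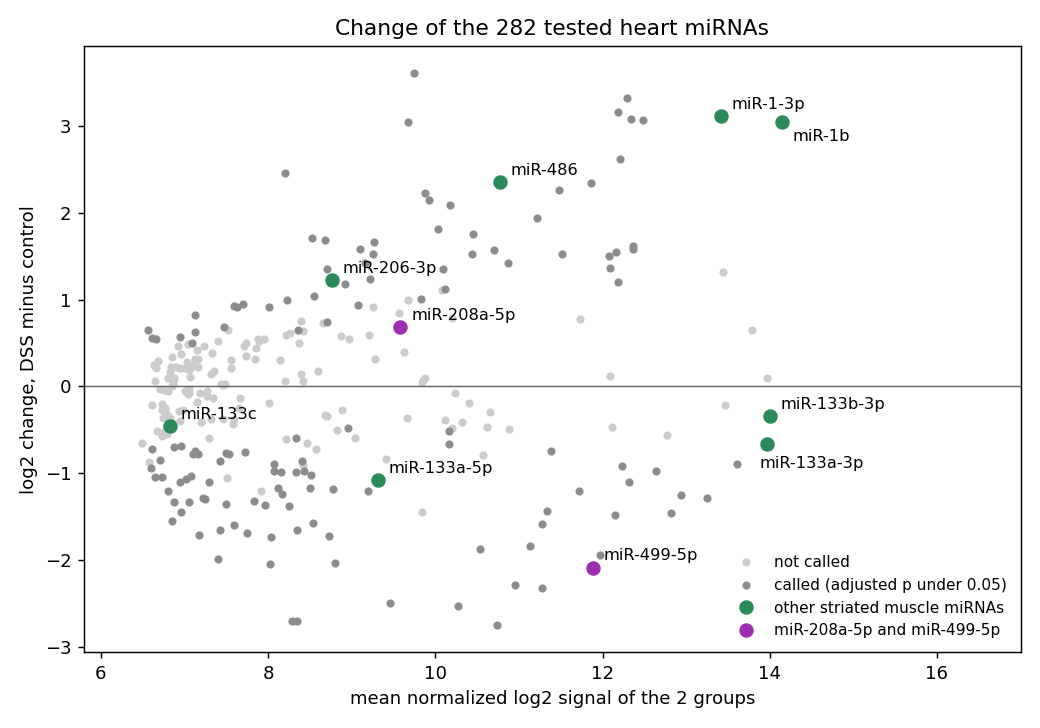
Change between DSS and control hearts (log2, vertical) against the mean normalized log2 signal (horizontal) for the 282 tested miRNAs, with the 2 detected arms and the other striated muscle miRNAs marked. miR-499-5p lies at -2.09 among the called miRNAs that fell, miR-208a-5p at 0.68 among those not called, and miR-1-3p and miR-1b at the upper right.

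The miRNAs whose pattern over the 6 arrays was most like that of miR-499-5p were miR-29c-3p, miR-126a-3p and miR-322-5p, with Pearson's r of 0.995, 0.995 and 0.994. Their changes were -2.74, -1.28 and -1.84 (limma's adjusted p of 0.0197, 0.0229 and 0.0229). After the group means were removed, r was still 0.98 for each. Arrays with a low miR-499-5p within their group were thus also low in these miRNAs. Within each group, miR-499-5p was lower on arrays with a high background. The part of the background in these r values was not tested. For miR-208a-5p the nearest were miR-187-5p (r = 0.93), miR-23b-3p (r = 0.92) and miR-496-5p (r = 0.92), of which miR-496-5p was called higher in DSS hearts by 0.92 (limma's adjusted p = 0.0213). These r values describe 6 arrays that share 1 normalization, and the neighbors were picked for them from all tested miRNAs.

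In whole heart RNA, fewer cells of a type and less of a miRNA per cell cannot be told apart. Marker lists are given by their calls and by the sum of their normalized linear signals, which follows the brightest probes and is not a count of cells. Of the 5 cardiac muscle markers (the 3p arms of miR-208a, miR-208b, miR-1 and miR-133a and miR-499-5p), 4 were detected on at least 1 array, 1 was called higher (miR-1-3p) and 1 lower (miR-499-5p itself), and their summed linear signal ranged from 25131 to 41212 in control and from 27763 to 79369 in DSS hearts. The 2 endothelial markers summed to between 12259 and 20280 in control and between 4694 and 10308 in DSS hearts. Of these, miR-126a-3p was called lower and miR-126a-5p was not called. The 3 erythroid ones summed to between 2207 and 5863 in control and between 414 and 1065 in DSS hearts. Here miR-451-5p and miR-144-5p were called lower, and miR-144-3p was detected on no array. miR-486, known from blood cells as well as muscle, was counted in the muscle list only and went the other way (2.36). The 6 leukocyte markers summed to between 2496 and 5120 in control and between 8822 and 10234 in DSS hearts, with 2 called higher (miR-150-5p and miR-155-5p) and 1 lower (miR-223-3p). Of the 3 fibroblast markers, miR-199a-5p (-1.58) and miR-199a-3p (-0.75) were called lower and miR-214-3p (1.12) higher. Their sums lay between 4817 and 4921 in control and between 3451 and 4532 in DSS hearts. Of the smooth muscle markers, miR-145-5p was called lower and miR-143-3p was not called. Their sums lay between 11724 and 18222 in control and between 8230 and 8447 in DSS hearts. Of 11 markers of liver, brain and epithelia, 7 were detected on at least 1 array, and miR-124-3p, miR-141-3p, miR-200a-3p and miR-375-3p were not detected on any of the 6. Among them miR-192-5p (-1.37) and miR-194-5p (-1.32), known from gut and kidney epithelium, were detected on 6 arrays and called lower, and miR-200b-3p (0.55) was called higher. Their sum ranged from 1540 to 1770 in control and from 958 to 1457 in DSS hearts. The part of these other cell types in the fall of miR-499-5p was not tested.

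Under 21 alternatives for miR-499-5p and 22 for miR-208a-5p, miR-499-5p stayed below 0 and miR-208a-5p above 0. The miR-499-5p difference ranged from -2.57 to -1.39 and kept its call in 16 of 21, and miR-208a-5p ranged from 0.13 to 1.68 and was called in 3 of 22.

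**Figure D4:**
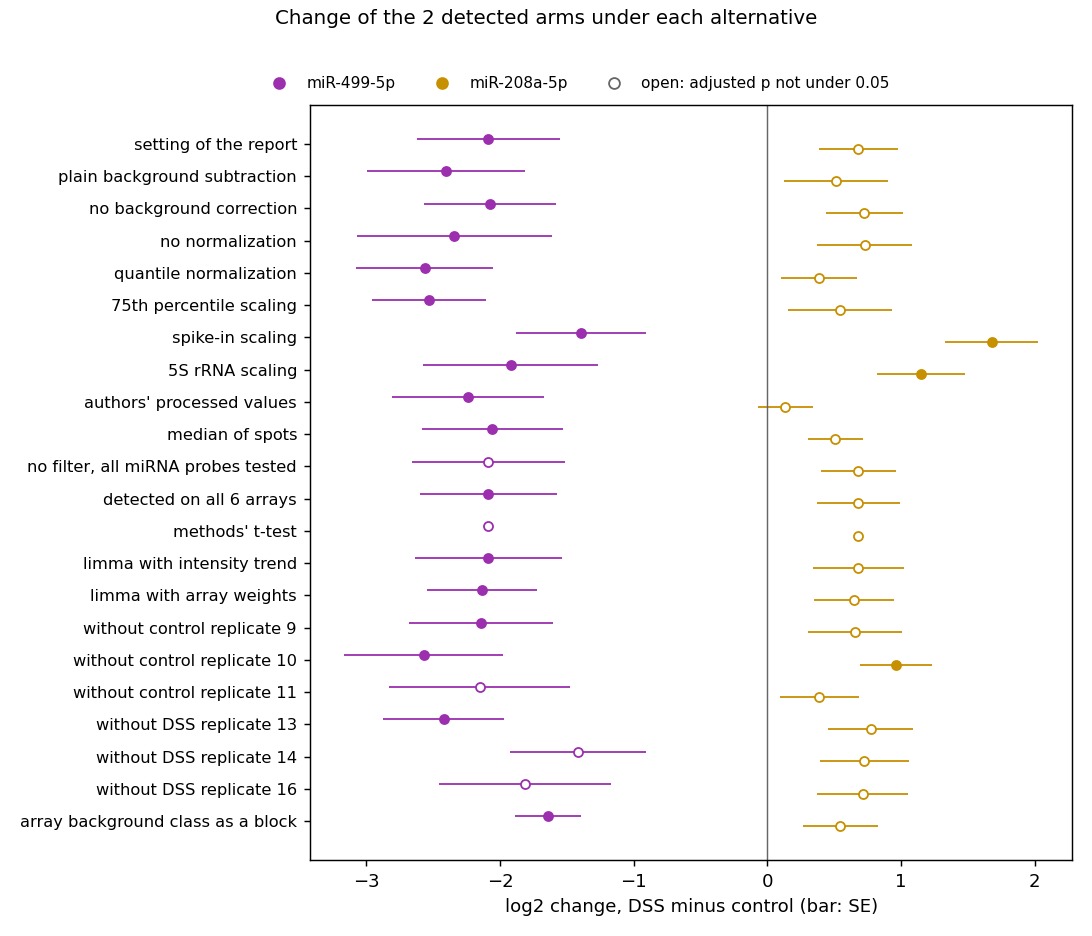
Difference between DSS and control hearts on the log2 scale (points, with SE bars where the test gives one) of miR-499-5p and miR-208a-5p for the processing of the report and each alternative; filled points have an adjusted p under 0.05. miR-499-5p is below 0 and miR-208a-5p above 0 at each setting, and the settings that leave out DSS 14 or DSS 16 have open points for miR-499-5p.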

How the data were processed

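Total heart RNA of 6 rats was hybridized by LC Sciences to 1-color (Cy5) rat miRNA arrays of 3968 spots, 4 for each of 761 miRNAs. The deposited scanner files give, per the file headers, the median spot intensity on a linear scale with background included. A deposited table holds intensity values that the authors background-subtracted and normalized with a LOWESS filter. From the scanner files, background was corrected with normexp (offset 50), log2 values of the 4 spots were averaged, and cyclic LOWESS (span 0.7, 3 iterations) was run over all miRNA probes. Detection used the limits of the methods (3 SD of background, CV below 0.5, at least 2 of 4 spots). The methods do not say how background was read, and here its level was the median of the dimmest miRNA spots and its SD that of the 632 empty spots. For 282 miRNAs detection held on at least 3 arrays, and these were tested with limma 3.58.1 in R 4.3.3, with Benjamini-Hochberg adjustment over all of them and a threshold of 0.05. The exact permutation test was two-sided. Figures used matplotlib 3.10.9 under Python 3.11.15. The processing was tested on simulated data. Named were all arms of the members, the muscle list, and for each detected member the 3 miRNAs with the highest Pearson's r over 6 arrays. Members and lists were chosen with earlier results of these data known. Alternatives were 23 planned and 3 added after seeing the data, and a block for slide or scan could not be fitted, as neither is in the files. The number of arrays limits the precision.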

Additional observations from a re-analysis of the deposited data

How the results depend on the processing

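miR-499-5p was lower in DSS hearts under every one of its 21 alternatives and miR-208a-5p higher under every one of its 22. The miR-499-5p call was lost when all 761 probes were tested (-2.09, adjusted p = 0.0685 in limma) and with the methods' t-test (-2.09), and leaving out 1 array gave -2.57 to -1.42, with the call lost without control 11, DSS 14 or DSS 16. For miR-208a-5p a call appeared with spike-in scaling (1.68), with 5S rRNA scaling (1.15) and without control 10, and leaving out 1 array gave 0.39 to 0.96. The within-array difference of both arms stayed below 0 throughout, from -3.53 to -2.15. The number of miRNAs called was 74 with all probes, 0 with the methods' t-test (155 at an unadjusted p under 0.05) and 0 to 140 with 1 array left out, the 0 being without DSS 16 (124 unadjusted). Of the muscle list, 0 were called by the methods' t-test and 0 to 5 with 1 array left out, and the median change was 0.76 with no normalization, 1.71 with spike-in scaling, 1.18 with 5S rRNA scaling, 1.23 over those detected on 6 arrays (fewer miRNAs) and 0.36 to 0.75 with 1 array left out. miR-133b-3p reversed with spike-in scaling (0.10) and without DSS 13, where leaving out 1 array gave -0.90 to 0.039, and miR-133c reversed with no normalization (0.0058), spike-in scaling (0.96) and 5S rRNA scaling (0.43). At a detection limit of 2 SD, miR-208a-3p was detected on 3 arrays, miR-208b-3p on 1 and miR-499-3p on 4, and miR-499-3p was detected on 1 array at 5 SD and on 1 when the empty spots' median replaced the background. The cause of these changes was not tested. The planned ratios with miR-208a-3p were not formed under any alternative. In the setting of the report miR-208a-3p was detected on 1 array and miR-208b-3p on 0. No paired analysis was possible because the groups share no animal number.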
